A study of Mus musculus with 23 samples.

Results

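Stearoyl-CoA desaturases and fatty acid desaturases place double bonds in fatty acyl chains, and 5 of their genes, Scd1, Scd2, Fads1, Fads2 and Fads3, are described here in mouse CD8+ T cells given no fatty acid or 1 of 2 fatty acids. The genes were chosen by their symbols, as 5 of the 49492 genes of a table of read counts, with earlier results of these data known. Of the 5, 4 passed the filter on low counts, as did 18015 genes in all, and Fads3 did not pass. The CD8+ T cells came from spleen, and polyadenylated RNA was sequenced in 23 libraries. The group called WT carried Plpp1 alleles flanked by loxP sites (Plpp1 fl/fl), and the group called KO carried the same alleles and a Cre recombinase driven by the promoter of Lck, a kinase gene active in T cells. Both genotypes therefore carry the floxed alleles, and the labels name no group with unmodified Plpp1 and none with Cre alone. Cells of each genotype were untreated, given octadecenoic acid (OA) or given arachidonic acid (AA), with 4 libraries in each group except KO with OA, which has 3. Ages, doses and times of treatment are not in the labels, which also do not say whether the libraries came from separate animals. The p-values below therefore measure only the spread between these libraries.

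SCD enzymes act on saturated acyl-CoA and make monounsaturated chains, and oleic acid, their main product, is an octadecenoic acid. The labels do not say which isomer OA is. FADS2, the delta-6 desaturase, and FADS1, the delta-5 desaturase, act in turn, with an elongation step between them, to make arachidonic acid from linoleic acid, so that OA and AA belong to the product classes of these enzymes. In liver and other tissues, transcription of Scd1, Fads1 and Fads2 is known to be driven by SREBP-1, the product of Srebf1, and to fall when polyunsaturated fatty acids are supplied. Monounsaturated chains in membrane lipids are less easily oxidised than polyunsaturated ones, which is why desaturases are studied in ferroptosis, the kind of cell death named in the study's title.

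Total counts per library ran from 39265131 to 58878203, and no 2 replicates agreed within sampling noise (the smallest chi-square per degree of freedom was 3.10). Replicates of KO with AA differed most, with 13.8 for replicates 1 and 2, 15.4 for 1 and 4, and 13.1 for 2 and 4. The largest value in any other group was 9.01. Marker genes of CD8+ T cells summed to between 1764 and 2019 CPM (counts scaled to the size of the library) in every library, and Cd4 stayed at or below 2.79 CPM. Plpp1 itself had 17 to 39 counts in WT libraries and 15 to 37 in KO libraries, and untreated KO and WT did not differ (log2 difference -0.12, 95% interval -0.76 to 0.52, edgeR adjusted p = 0.774), so that it does not check the genotype labels. Xist, a transcript of female cells, lay between 784 and 884 CPM in WT and between 2.98 and 5.35 CPM in KO. The receptor segment Trbv12-1 took 81.6% to 86.0% of Trbv counts in WT and 3.27% to 4.32% in KO. Differences between KO and WT below therefore cannot be told apart from differences in sex or in T cell receptor.

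All 5 genes lie on chromosome 19 of GRCm38. Scd1 spans 44394451 to 44407709 on the minus strand and Scd2 spans 44293676 to 44306864 on the plus strand. Fads1 spans 10182888 to 10196870 and Fads3 spans 10041548 to 10059671, both on the plus strand, and Fads2 spans 10064164 to 10101503 on the minus strand. The coding sequences of Scd1 and Scd2 are identical at 965 of 1068 aligned bases (90.4%), with 1 identical run of 147 bases, so short reads from such a stretch fit both genes. The stretch around that run, the longest that Scd1 and Scd2 share, is printed from the GENCODE transcripts. It was picked for its likeness and does not stand for the whole coding sequence. Capitals mark the bases that differ from Scd1 (coding bases 508 to 684 of Scd1, 5′ to 3′).
Scd1: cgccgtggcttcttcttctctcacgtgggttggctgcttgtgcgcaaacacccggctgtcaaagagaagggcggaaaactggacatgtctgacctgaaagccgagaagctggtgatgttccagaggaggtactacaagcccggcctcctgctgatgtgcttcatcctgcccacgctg
Scd2: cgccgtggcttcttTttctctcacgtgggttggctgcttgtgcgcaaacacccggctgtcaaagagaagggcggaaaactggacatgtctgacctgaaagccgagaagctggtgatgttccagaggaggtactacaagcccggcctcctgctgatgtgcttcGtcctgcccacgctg
Scd3: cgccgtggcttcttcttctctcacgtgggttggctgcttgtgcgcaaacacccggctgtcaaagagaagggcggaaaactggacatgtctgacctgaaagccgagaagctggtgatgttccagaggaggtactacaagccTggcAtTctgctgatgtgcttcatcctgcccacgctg
Scd4: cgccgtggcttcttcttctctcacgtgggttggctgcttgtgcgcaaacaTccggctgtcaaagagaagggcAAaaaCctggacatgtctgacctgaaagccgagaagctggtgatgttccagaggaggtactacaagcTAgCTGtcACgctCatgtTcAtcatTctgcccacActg
Over these 177 bases Scd2 differs from Scd1 at 2 bases, Scd3 at 3 and Scd4 at 16.

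Across whole transcripts the overlap is small. Of all windows of 50 bases in the Scd1 transcript 4.66% occur in another gene as well, and in the Scd2 transcript 4.01%. With windows of 100 bases the shares are 2.66% for Scd1 and 0.896% for Scd2. The sources used here do not say how reads that fit several genes were counted, so part of the Scd1 counts could come from Scd2, which is far more abundant, and Scd1 values are uncertain to that extent. The Fads genes are less alike. Fads1 and Fads2 are identical at 67.7% of aligned coding bases, Fads2 and Fads3 at 71.1%, and the stretch around the longest run shared by Fads1 and Fads2 is printed with capitals at the bases that differ from Fads2 (coding bases 1138 to 1184 of Fads2).
Fads2: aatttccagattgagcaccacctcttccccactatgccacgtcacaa
Fads1: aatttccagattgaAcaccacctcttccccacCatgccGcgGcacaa
Fads3: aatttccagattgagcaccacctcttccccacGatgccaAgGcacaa
Over these 47 bases Fads1 differs from Fads2 at 4 bases and Fads3 at 3. No window of 50 bases in the Fads1 transcript occurs in another gene, and only 0.161% of those in Fads2 do.

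The genes stood at very different levels in untreated WT cells. In RPKM, which divides CPM by the length of the gene model, Scd2 reached 68.7 ± 2.77 (SD, n = 4), Fads1 4.18 ± 0.275, Fads2 3.65 ± 0.377 and Scd1 0.838 ± 0.0771. Scd2, the SCD gene best known from brain, thus supplied most SCD transcripts in these T cells, and Scd1, the main SCD gene of liver and fat, few. Of all counts per base over Scd1, Scd2, Scd3 and Scd4, Scd2 held between 97.7% and 99.2% in every library. The gene model behind the table holds 45.8% of the exon bases that GENCODE gives for Fads2 and 71.8% of those for Fads1, so the levels of this pair per length depend on that model. The 4 marker genes of fat cells, a cell type rich in Scd1, summed to 0.184 to 0.489 CPM in untreated WT, 0.0741 to 0.215 with OA and 0.193 to 0.285 with AA, and in KO, where the lowest untreated library had none, to at most 0.843 CPM untreated, 0.0842 CPM under OA and 0.234 CPM under AA. Their group means (0.285, 0.147 and 0.228 CPM in WT, and 0.256, 0.0584 and 0.162 CPM in KO) were lower in each treated group, as those of Scd1, Scd2 and Fads2 were. These sums are near the limit of detection, as 3 counts in a library make 0.0501 to 0.0786 CPM. The untreated KO mean also leans on the 1 library at 0.843 CPM. The part of these markers in the desaturase values was not tested. In bulk RNA, fewer cells with a transcript and less of it per cell cannot be told apart.

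Fads3, a relative whose enzyme is known to act on sphingoid bases, was at the limit of detection. It had 68 counts over all 23 libraries, 0 to 6 in each, and 3 libraries had none. Summed counts per group were 10 in every group but WT with OA, where they were 18. That makes 0.0543 CPM in untreated WT (exact 95% Poisson interval 0.0261 to 0.0999, counting error only) and 0.106 CPM in WT with OA (0.0628 to 0.167). A library needed 0.0501 to 0.0786 CPM to hold 3 counts. Fads3 did not pass the filter on low counts, so a difference between groups was not tested for it.

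Scd1 fell in both genotypes with both fatty acids. The untreated WT libraries held 3.96, 3.56, 4.33 and 4.36 CPM of Scd1, WT with OA 1.46, 1.53, 1.28 and 1.85, and WT with AA 2.54, 2.73, 2.39 and 3.22. In untreated KO Scd1 stood at 6.66, 5.69, 6.84 and 7.51 CPM, in KO with OA at 1.77, 1.63 and 1.52, and in KO with AA at 1.83, 2.00, 2.14 and 1.92. Every treated library lay below every untreated library of its genotype, and the 4 untreated KO libraries were above all others. How many of all tested genes are without overlap in this way was not counted, here or for the genes below. In WT, OA lowered Scd1 to 38.0% of the untreated level (log2 change -1.40 ± 0.127 SE, edgeR adjusted p = 7.47e-10) and AA to 67.5% (-0.57 ± 0.116, edgeR adjusted p = 0.0102). In KO, OA lowered it to 24.7% (-2.02 ± 0.134, edgeR adjusted p = 6.20e-14) and AA to 29.7% (-1.75 ± 0.116, edgeR adjusted p = 3.24e-14). The Scd1 change with OA was rank 36 in WT and rank 32 in KO, counted from the lowest of 18015 log2 changes. The call for AA in WT was lost without WT replicate 4 or without replicate 1 or 3 of WT with AA (log2 change -0.53, -0.54 and -0.52, edgeR adjusted p = 0.0503, 0.0545 and 0.0633).

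Scd2 fell by less on the log2 scale but from a far higher level. Untreated WT libraries held 393, 358, 380 and 367 CPM of Scd2, WT with OA 246, 241, 243 and 245, and WT with AA 306, 305, 306 and 307. Untreated KO held 398, 422, 389 and 403 CPM, KO with OA 172, 161 and 166, and KO with AA 210, 199, 207 and 208. The 3 conditions did not overlap within either genotype, and OA libraries were always the lowest. In WT, Scd2 fell to 65.1% of the untreated level with OA (log2 change -0.62 ± 0.0324, edgeR adjusted p = 4.05e-16) and to 81.7% with AA (-0.29 ± 0.0322, edgeR adjusted p = 2.28e-07). In KO, it fell to 41.3% with OA (-1.28 ± 0.0363, edgeR adjusted p = 6.66e-25) and to 51.2% with AA (-0.97 ± 0.0326, edgeR adjusted p = 2.11e-22). The microRNA gene Mir5114 lies wholly within the last exon of Scd2 and shares 61 exon bases with it, so its 317 to 874 counts per library cannot be told apart from Scd2 reads.

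**Figure D1:**
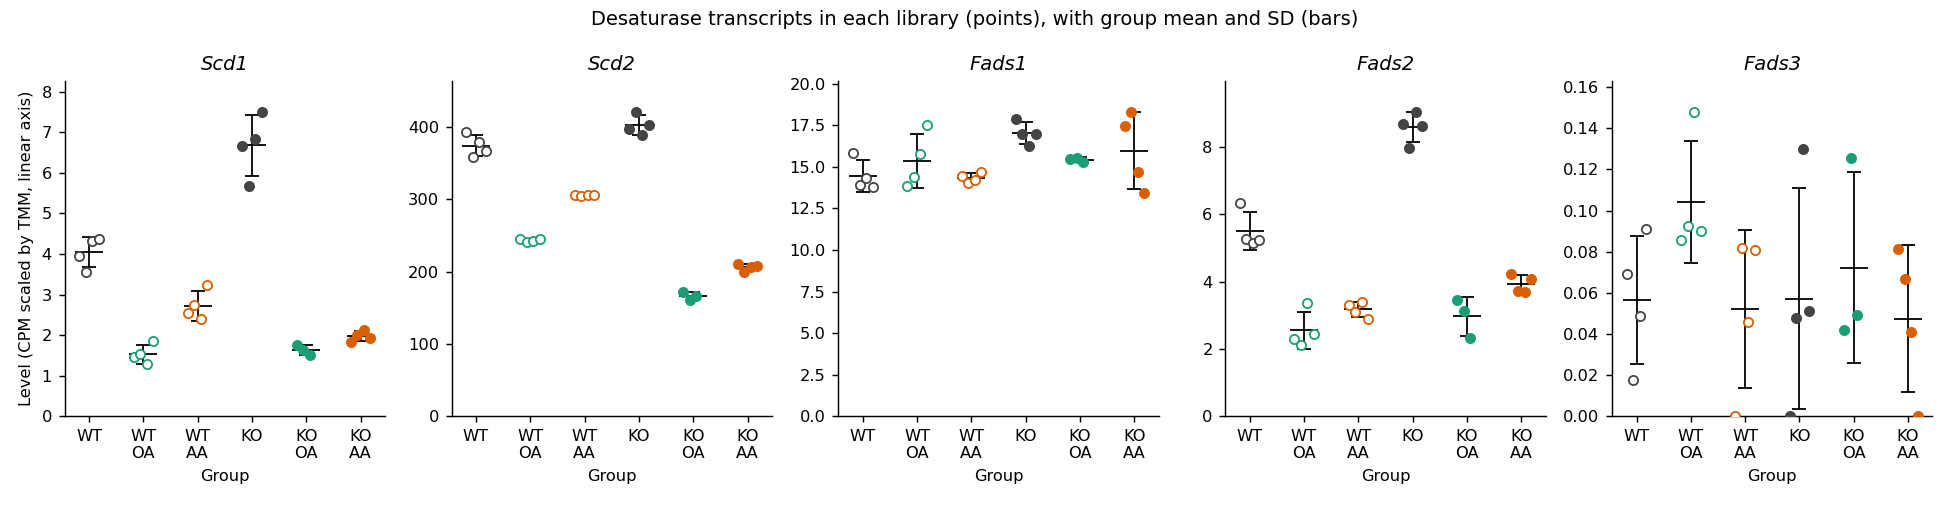
Level of each desaturase gene in CPM scaled by TMM (linear vertical axes that start at 0 and differ between panels) in the 6 groups, with 1 point per library, open for WT and filled for KO, and a horizontal line and whiskers for the group mean and SD. Scd1, Scd2 and Fads2 are lower in every treated group than in the untreated group of the same genotype, Fads1 stays between 13.4 and 18.3 CPM, and Fads3 lies at 0 to 6 counts per library.

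Fads2, the delta-6 desaturase that opens the polyunsaturated pathway, fell in all 4 treated groups, and Fads1, which acts after it, did not pass the test in any. Fads2 stood at 6.35, 5.27, 5.13 and 5.25 CPM in untreated WT, at 2.30, 2.10, 3.36 and 2.43 with OA and at 3.31, 3.10, 3.40 and 2.88 with AA. In KO it stood at 8.67, 7.98, 9.05 and 8.63 CPM untreated, at 3.45, 3.12 and 2.33 with OA and at 4.24, 3.71, 3.68 and 4.08 with AA. Treated and untreated libraries of Fads2 did not overlap in either genotype, whereas OA and AA libraries overlapped in WT and not in KO. With OA, Fads2 fell to 46.2% of the untreated level in WT (log2 change -1.11 ± 0.119, edgeR adjusted p = 3.34e-08) and to 34.8% in KO (-1.52 ± 0.124, edgeR adjusted p = 1.01e-11). With AA, it fell to 57.7% in WT (-0.79 ± 0.114, edgeR adjusted p = 6.25e-05) and to 45.7% in KO (-1.13 ± 0.108, edgeR adjusted p = 2.45e-10).

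Fads1 ranged from 13.4 to 18.3 CPM over all 23 libraries. Its mean was 14.5 ± 0.952 CPM in untreated WT (SD, n = 4), 15.4 ± 1.63 with OA and 14.4 ± 0.272 with AA, and 17.0 ± 0.670 CPM in untreated KO, 15.4 ± 0.139 with OA (n = 3) and 16.0 ± 2.30 with AA. The 95% intervals of its log2 change with OA were -0.06 to 0.24 in WT (edgeR adjusted p = 0.618) and -0.30 to 0.02 in KO (edgeR adjusted p = 0.218), although the KO libraries with and without OA did not overlap. With AA they were -0.16 to 0.14 in WT (edgeR adjusted p = 0.988) and -0.23 to 0.06 in KO (edgeR adjusted p = 0.425). These intervals leave out changes of Fads1 as large as those of Fads2. Within each library, the Fads2 to Fads1 ratio per base was 87.0% in untreated WT, 37.5% with OA and 50.6% with AA, and in KO it was 115% untreated, 43.5% with OA and 56.7% with AA.

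Of the 4 tested desaturase genes, 3 (Scd1, Scd2 and Fads2) thus fell in each of the 4 comparisons of a fatty acid with none, and none rose. The share of all tested genes called was 0.416% for AA in WT, 27.6% for AA in KO, 3.73% for OA in WT and 23.2% for OA in KO, and the median log2 change of all tested genes lay between -0.01 and 0.00. The calls in KO therefore stand against a much larger share of called genes than those in WT. The desaturase genes were chosen with earlier results of these data known, so these shares do not test the set. Both comparisons within a genotype use the same untreated libraries, so a fall with OA and a fall with AA are not independent.

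**Figure D2:**
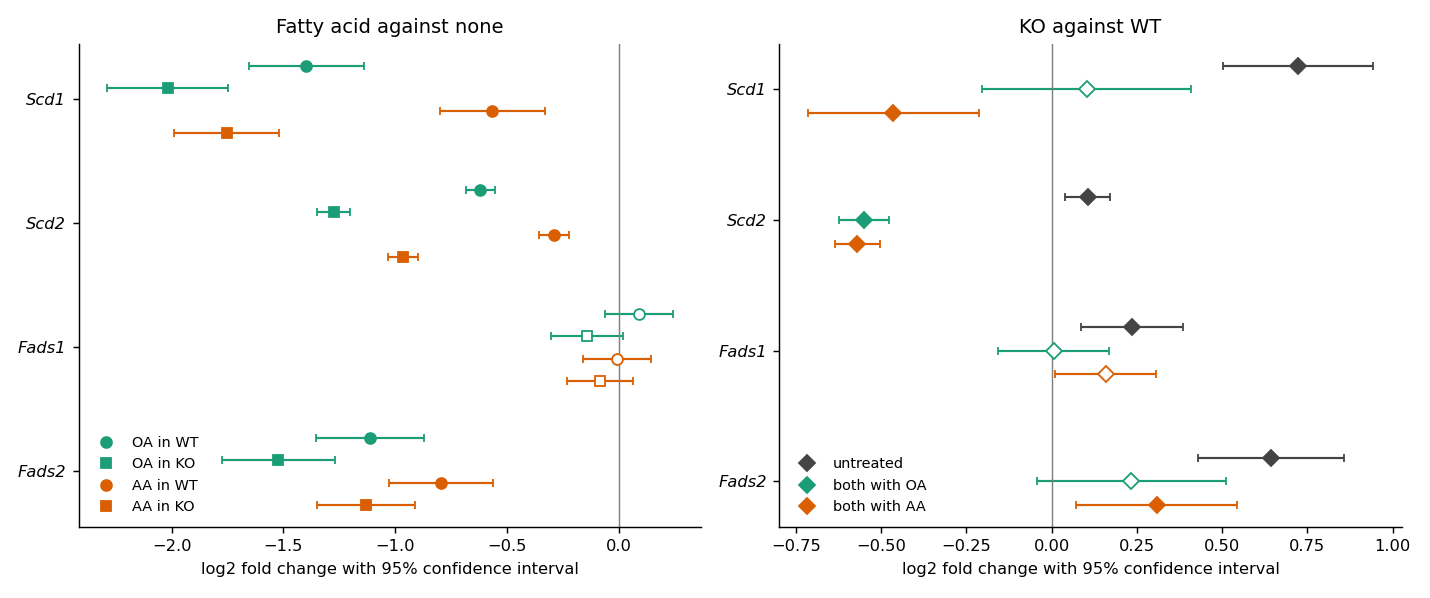
Log2 fold change (horizontal axes, which differ in range between panels) with its 95% confidence interval from edgeR for the 4 tested desaturase genes, on the left for the fatty acids against no treatment and on the right for KO against WT, with filled symbols where the adjusted p is under 0.05 and open symbols where it is not. Scd1, Scd2 and Fads2 lie left of 0 in all 4 fatty acid comparisons, from -0.29 for Scd2 with AA in WT to -2.02 for Scd1 with OA in KO, and the intervals of Fads1 include 0 in those 4 comparisons but lie above 0 for KO against WT untreated and with AA.

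The fall of both Scd genes was larger in KO than in WT, as the difference of effects tested directly showed. For AA, the log2 change of Scd1 in KO minus that in WT was -1.19 ± 0.165 SE (edgeR adjusted p = 2.86e-06) and that of Scd2 was -0.68 ± 0.0457 (edgeR adjusted p = 7.86e-13), while 13.9% of all tested genes were called. For OA, the difference was -0.62 ± 0.187 for Scd1 (edgeR adjusted p = 0.0233) and -0.66 ± 0.0479 for Scd2 (edgeR adjusted p = 1.56e-11), with 12.5% of all tested genes called. The Scd1 difference for OA was the least secure of these. It lost its call without WT replicate 2 (edgeR adjusted p = 0.0560), WT with OA replicate 4 (0.0933), KO replicate 4 (0.0529) or KO with OA replicate 2 or 3 (0.0563 and 0.0676), with log2 differences from -0.50 to -0.62.

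For Fads2 and Fads1 the difference of effects did not pass the test. Fads2 gave -0.34 for AA (95% interval -0.66 to -0.02, edgeR adjusted p = 0.171) and -0.41 for OA (-0.76 to -0.06, edgeR adjusted p = 0.126). Fads1 gave -0.08 for AA (-0.29 to 0.13, edgeR adjusted p = 0.715) and -0.23 for OA (-0.45 to -0.01, edgeR adjusted p = 0.182). All 4 values were below 0, and the Fads2 intervals allow a larger fall in KO of up to 0.66 or 0.76 on the log2 scale. Both differences use the same untreated libraries of both genotypes.

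Without fatty acid, all 4 tested desaturase genes were higher in KO than in WT, in a comparison in which 49.8% of all tested genes were called. Scd1 was 1.65-fold higher (log2 difference 0.72 ± 0.109 SE, edgeR adjusted p = 6.70e-07) and Fads2 1.56-fold higher (0.64 ± 0.105, edgeR adjusted p = 3.16e-06), and the libraries of both genotypes did not overlap for either gene. Fads1 was 1.18-fold higher (0.24 ± 0.0739, edgeR adjusted p = 0.00760), again with no overlap. Lack of overlap was not counted over all tested genes, so it does not set these genes apart. Scd2 differed least, by 1.08-fold (0.11 ± 0.0321, edgeR adjusted p = 0.00596), and its KO libraries at 389 to 422 CPM overlapped the WT libraries at 358 to 393 CPM. The Scd2 call was lost without WT replicate 4 (log2 difference 0.08, edgeR adjusted p = 0.0752) and with upper quartile scaling (0.06, edgeR adjusted p = 0.0994).

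The order of the genotypes changed with AA for both Scd genes, and with OA for Scd2 only. With AA, KO cells had 72.5% of the Scd1 level of WT cells (log2 difference -0.46 ± 0.124, edgeR adjusted p = 0.00241) and 67.4% of the Scd2 level (-0.57 ± 0.0325, edgeR adjusted p = 6.59e-17), with no overlap between libraries. Fads2 was 1.24-fold higher in KO with AA (0.31 ± 0.117, edgeR adjusted p = 0.0315). That made 3 of 4 desaturase genes called where 42.7% of all tested genes were. The Fads2 call was lost without replicate 2 or 4 of WT with AA (log2 difference 0.30 and 0.27, edgeR adjusted p = 0.0638 and 0.0981) or replicate 1 or 4 of KO with AA (0.27 and 0.29, edgeR adjusted p = 0.0887 and 0.0674). Fads1 did not pass (0.16, 95% interval 0.01 to 0.31, edgeR adjusted p = 0.0771), but did without replicate 3 or 4 of KO with AA (0.20 and 0.23, edgeR adjusted p = 0.0405 and 0.00730).

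With OA, 1 of the 4 genes was called between genotypes, where 43.1% of all tested genes were. Scd2 in KO was at 68.3% of its WT level (log2 difference -0.55 ± 0.0357, edgeR adjusted p = 3.34e-15). Scd1 stood at 1.64 ± 0.123 CPM in KO with OA and 1.53 ± 0.235 CPM in WT with OA, and the difference did not pass (0.10, 95% interval -0.21 to 0.41, edgeR adjusted p = 0.628). Fads2 at 0.23 (-0.04 to 0.51, edgeR adjusted p = 0.173) and Fads1 at 0.01 (-0.16 to 0.17, edgeR adjusted p = 0.965) did not pass either. The Fads2 difference with OA passed without replicate 3 of WT with OA (0.39, edgeR adjusted p = 0.0180) or replicate 3 of KO with OA (0.37, edgeR adjusted p = 0.0345). These 3 comparisons of genotype, untreated, with AA and with OA, share no library. The difference in Xist and in Trbv12-1 runs through all 3, and the labels do not say whether the libraries came from separate animals. They are therefore not independent evidence on genotype.

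OA and AA differed in how far they lowered the Scd genes, at doses that are not given, so that the values set 2 treatments side by side and not 2 matched doses. In WT, Scd1 was 1.78-fold higher with AA than with OA (log2 difference 0.83 ± 0.131, edgeR adjusted p = 7.39e-05) and Scd2 1.26-fold higher (0.33 ± 0.0324, edgeR adjusted p = 9.21e-09), where 2.95% of all tested genes were called. Fads2 did not pass there (0.32, 95% interval 0.06 to 0.57, edgeR adjusted p = 0.203), though it did without replicate 3 of WT with OA (0.47, edgeR adjusted p = 0.0303). In KO, Scd2 was 1.24-fold higher with AA (0.31 ± 0.0355, edgeR adjusted p = 7.90e-08) and Fads2 1.31-fold higher (0.39 ± 0.129, edgeR adjusted p = 0.0346), where 14.0% of all tested genes were called. The Fads2 call was lost without replicate 2 or 3 of KO with OA (0.43 and 0.26, edgeR adjusted p = 0.0674 and 0.268) or replicate 1 or 4 of KO with AA (0.36 and 0.37, edgeR adjusted p = 0.0845 and 0.0637). Scd1 in KO gave 0.26 (95% interval -0.03 to 0.56, edgeR adjusted p = 0.250), although its libraries with AA and with OA did not overlap. Fads1 gave -0.10 in WT (-0.25 to 0.05, edgeR adjusted p = 0.621) and 0.06 in KO (-0.10 to 0.21, edgeR adjusted p = 0.723).

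Put in order of mean level, untreated KO was the highest group for all 4 tested genes and untreated WT the second for Scd1, Scd2 and Fads2. Scd1 went on with WT with AA, KO with AA, KO with OA and WT with OA, and the last 3 did not differ between neighbours. Scd2 went on with WT with AA, WT with OA, KO with AA and KO with OA. No neighbours in that order of Scd2 overlapped apart from untreated KO and untreated WT, and WT with OA against KO with AA was not tested. Fads2 went on with KO with AA, WT with AA, KO with OA and WT with OA. There KO with OA did not pass against WT with OA and overlapped WT with AA, a pair that was not tested, and untreated WT did not overlap KO with AA, also an untested pair. Fads1 went from untreated KO to KO with AA, KO with OA, WT with OA, untreated WT and WT with AA, and no neighbours in that order differed by the test. The share of Scd1 among both Scd genes moved as well. Per base, Scd1 was 1.22% of Scd2 in untreated WT, 0.702% with OA and 0.996% with AA, and in KO it was 1.86% untreated, 1.11% with OA and 1.08% with AA. What part of the Scd1 counts came from Scd2 reads was not tested.

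**Figure D3:**
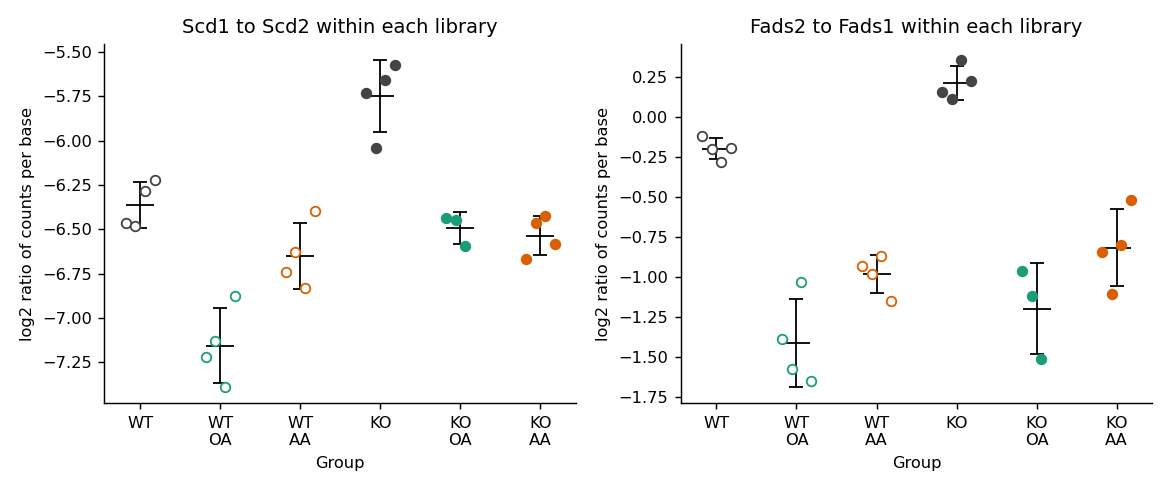
Log2 ratio of counts per base within each library (vertical axes), for Scd1 to Scd2 on the left and Fads2 to Fads1 on the right, in the 6 groups, with 1 point per library, open for WT and filled for KO, and a horizontal line and whiskers for the group mean and SD. Both ratios are highest in untreated KO, at mean values of -5.75 and 0.21, and lowest in WT with OA, at -7.16 and -1.41.

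The closest relatives of the Scd genes were scarce in these cells. Scd4 had 0 to 43 counts per library and fell with OA in WT (0.721 ± 0.233 to 0.241 ± 0.133 CPM, log2 change -1.55 ± 0.41, edgeR adjusted p = 0.0217) and in KO (0.719 ± 0.134 to 0.154 ± 0.199 CPM, -2.15 ± 0.48, edgeR adjusted p = 9.03e-04). The WT call was lost when any of 4 of the 8 libraries was left out (the largest edgeR adjusted p was 0.0861). Replicate 3 of KO with OA had no Scd4 count, and the KO change was -3.92 without replicate 1 of KO with OA, in which Scd4 had 18 counts. Scd3 had at most 16 counts per library and did not pass in any comparison. Degs2, Msmo1 and Sc5d are relatives that act on sphingolipids or sterols. Of the 8 relatives listed, 0 rose and 1 fell with AA in WT (0.416% of all tested genes called) and 0 and 2 with AA in KO (27.6%). With OA, 0 rose and 1 fell in WT (3.73%), and 0 rose and 4 fell in KO (23.2%). The 1 that fell with AA in WT was Msmo1 (log2 change -0.36, edgeR adjusted p = 0.0325), whose call was lost in 7 of 8 fits with a library left out (the largest edgeR adjusted p was 0.177).

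The genes that control SREBP processing moved in part with the desaturases. Srebf1 fell in all 4 comparisons with a fatty acid, by 0.23 on the log2 scale with AA in WT (edgeR adjusted p = 0.0299), by 0.56 with AA in KO (edgeR adjusted p = 1.05e-10), by 0.27 with OA in WT (edgeR adjusted p = 0.00106) and by 0.71 with OA in KO (edgeR adjusted p = 1.01e-11). The fall with AA in WT was lost when any of 5 of its 8 libraries was left out (the largest edgeR adjusted p was 0.186). Like the Scd genes, Srebf1 fell further in KO (difference of effects -0.34 for AA, edgeR adjusted p = 0.00134, and -0.44 for OA, edgeR adjusted p = 1.60e-04). It was 0.16 higher in untreated KO than in WT and 0.18 and 0.28 lower in KO with AA and with OA (edgeR adjusted p = 0.00948, 0.00595 and 1.35e-04). Insig1, which holds SREBP proteins back in the endoplasmic reticulum and is itself an SREBP target, fell by 0.48 with AA in WT, 0.47 with AA in KO, 0.36 with OA in WT and 0.45 with OA in KO (the largest edgeR adjusted p was 1.84e-05). Its falls did not differ between genotypes by the test (0.01 and -0.10, edgeR adjusted p = 0.945 and 0.480). Unlike Srebf1, Insig1 was higher in KO than in WT untreated, with AA and with OA, by 0.61, 0.62 and 0.51 (the largest edgeR adjusted p was 1.96e-09). Srebf2 was 0.38 higher in untreated KO and 0.20 higher in KO with AA (edgeR adjusted p = 9.65e-11 and 2.87e-05), and was not called with OA. In these comparisons with WT, untreated, with AA and with OA, 49.8%, 42.7% and 43.1% of all tested genes were called. Of the 7 genes of SREBP control, 3 fell and 0 rose with AA in WT (0.416% of all tested genes called), and 3 fell and 2 rose with AA in KO (27.6%). With OA, 2 fell and 0 rose in WT (3.73%), and 3 fell and 1 rose in KO (23.2%).

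Genes of fatty acid synthesis, which makes the saturated chains that the Scd enzymes desaturate, fell in KO cells with both fatty acids. Of 8 tested synthesis genes, 5 fell and 0 rose in KO with AA (27.6% of all tested genes called). In KO with OA 5 fell and 0 rose (23.2% of all tested genes called), and DESeq2 called 4 with each fatty acid. Fasn, the fatty acid synthase, had the largest adjusted p of the 5 with OA (log2 change -0.12, edgeR adjusted p = 0.0463), a call lost in 6 of 7 fits with a library left out and under 5 of 8 other settings (the largest edgeR adjusted p was 0.195). In WT, edgeR called 0 of 8 with AA (1 at an unadjusted p under 0.05) and 0 of 8 with OA (0 at an unadjusted p under 0.05), and DESeq2 and limma-voom called 0 in both. Of all tested genes, only 0.416% and 3.73% were called there. Fasn fell by 0.48 on the log2 scale in KO with AA (edgeR adjusted p = 2.53e-11), and the difference from WT was -0.43 (edgeR adjusted p = 2.56e-06). Acaca, which makes the malonyl-CoA used by Fasn, fell by 0.59 (edgeR adjusted p = 2.44e-13), with a difference from WT of -0.44 (edgeR adjusted p = 2.33e-06). The order of OA and AA for both genes in KO was the reverse of that for Scd2, with Acaca lower with AA than with OA by 0.40 and Fasn by 0.36 (edgeR adjusted p = 8.08e-08 and 3.44e-07). Among 10 tested elongation genes, Elovl6, which lengthens palmitate to stearate, the usual SCD substrate, rose by 0.25 with AA in KO (edgeR adjusted p = 6.01e-05) and was higher with AA than with OA in WT and in KO by 0.29 and 0.25 (edgeR adjusted p = 8.09e-05 and 3.71e-04). Elovl5, which works between FADS2 and FADS1, changed by -0.13 with OA in WT (edgeR adjusted p = 0.0342), a call lost when any of 4 of the 8 libraries was left out (the largest edgeR adjusted p was 0.114), and passed in no other comparison. In the elongation list edgeR called 0 of 10 with AA in WT (2 at an unadjusted p under 0.05, and 0 by DESeq2 and limma-voom). With AA in KO 2 rose and 1 fell, where 27.6% of all tested genes were called. With OA, 0 rose and 1 fell in WT (3.73% of all tested genes called), and 0 rose and 1 fell in KO (23.2%). The 1 that fell in KO was Hacd1 with both, and its call was lost in 6 of 8 fits with a library left out for AA (the largest edgeR adjusted p was 0.220) and in 2 of 7 for OA (0.156).

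Cytochrome b5 and its reductases supply electrons to membrane-bound desaturases. Of 5 tested genes, 4 were higher and 1 lower in untreated KO, and 4 were higher and 0 lower in KO with AA and in KO with OA. In these comparisons with WT, 49.8%, 42.7% and 43.1% of all tested genes were called. Cyb5r4 was higher by 0.33, 0.25 and 0.35 on the log2 scale in untreated, AA-treated and OA-treated cells (the largest edgeR adjusted p was 1.22e-07). Of the same 5 genes edgeR called 0 with AA in WT (1 at an unadjusted p under 0.05) and 0 with OA in KO (0 at an unadjusted p under 0.05), with 0 by DESeq2 and limma-voom in both. In KO with AA 1 rose and 2 fell, of which Cyb5b lost its call in 5 of 8 fits with a library left out (the largest edgeR adjusted p was 0.0677), and in WT with OA 1 fell (Cyb5a, by 0.21, edgeR adjusted p = 0.00336). Of all tested genes, 0.416% were called with AA in WT, 27.6% with AA in KO, 3.73% with OA in WT and 23.2% with OA in KO.

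Of the genes known to be switched on by fatty acids through PPAR receptors, 2 are described with their values. Cpt1a, the entry step of mitochondrial fatty acid oxidation, rose by 0.34 with AA in WT, 0.88 with AA in KO, 1.19 with OA in WT and 1.32 with OA in KO (the largest edgeR adjusted p was 1.04e-08). Plin2, a lipid droplet coat protein, rose by 1.18 with OA in WT and 1.51 with OA in KO (edgeR adjusted p = 2.07e-12 and 4.18e-15), by 0.47 with AA in KO (edgeR adjusted p = 7.82e-05) and gave 0.04 with AA in WT (edgeR adjusted p = 0.959). Of 16 tested genes of this list, 2 rose and 0 fell with AA in WT (0.416% of all tested genes called), and 6 rose and 3 fell with AA in KO (27.6%). With OA, 6 rose and 0 fell in WT (3.73%), and 8 rose and 1 fell in KO (23.2%). Fen1, a DNA repair nuclease 2262 bases from Fads1, was higher in untreated KO by 0.62 (edgeR adjusted p = 1.31e-16) and fell in KO by 0.29 with AA and 0.21 with OA (edgeR adjusted p = 5.60e-08 and 1.10e-04). Of the 8 tested neighbours of the desaturase genes, 2 were higher and 2 lower in untreated KO than in WT (49.8% of all tested genes called). In KO 2 rose and 2 fell with AA (27.6%), and 1 rose and 1 fell with OA (23.2%). In WT edgeR called 0 neighbours with either fatty acid, with 0 at an unadjusted p under 0.05 and 0 by DESeq2 and limma-voom.

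**Figure D4:**
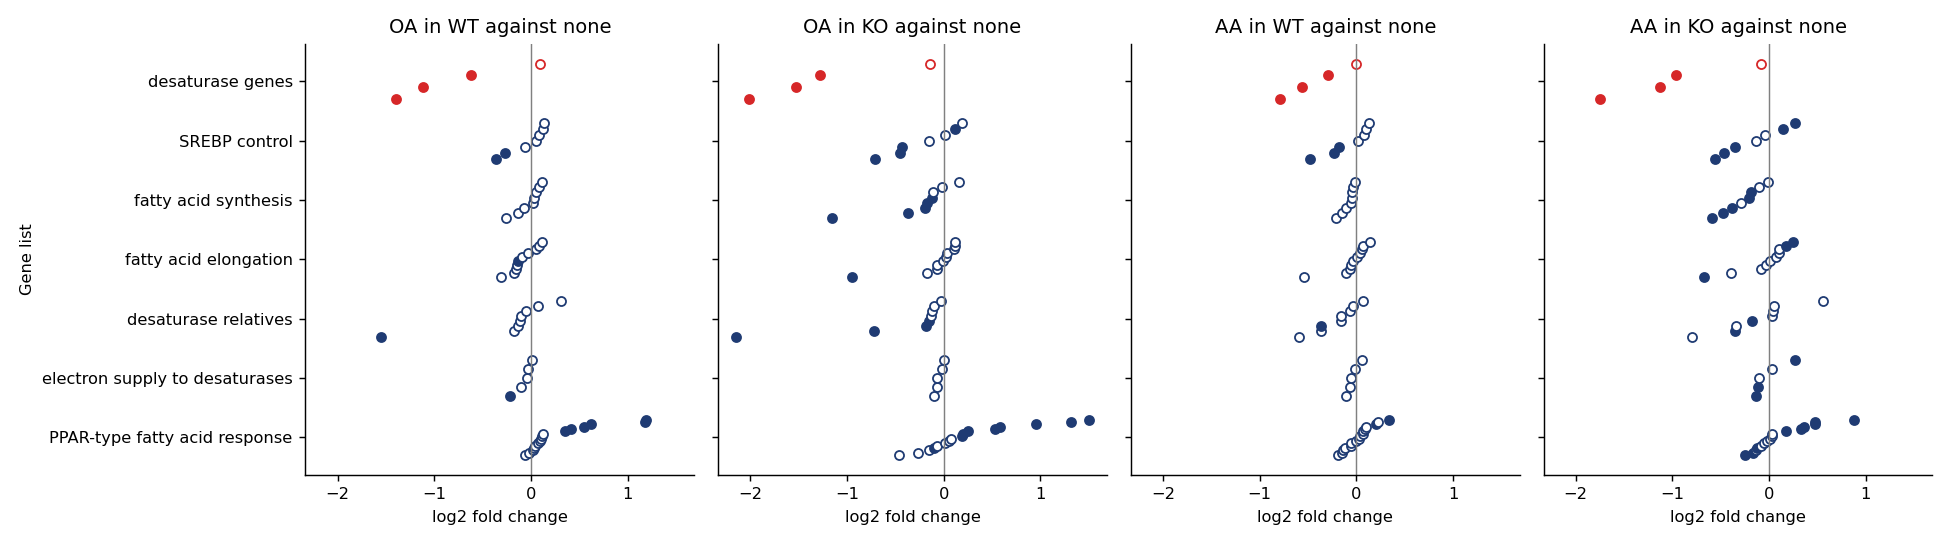
Log2 fold change (horizontal axis, the same in all panels) of each tested gene for each fatty acid against none in WT and in KO, with 1 point per gene, filled where the edgeR adjusted p is under 0.05. The rows are the 4 tested desaturase genes in red and 6 lists of related genes in blue, ordered within a row by value, and 3 desaturase genes lie at or below -0.29 in every panel, while Cpt1a and Plin2 stand at the right with OA.

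Beyond these lists, genes were ranked by the likeness of their level to each desaturase over the 23 libraries, as Pearson's r of log2 CPM after each genotype's mean was subtracted, among 10112 genes. The value is a description over libraries that share treatments, and it has no test. Scd1 and Scd2 were close to each other (r = 0.97), with Scd2 at position 1 in the list for Scd1 and Scd1 at position 4 in the list for Scd2, and Fads2 was close to both (0.91 with Scd1 and 0.94 with Scd2). For Scd2 the closest were Podnl1 (0.98), the embedded Mir5114 (0.97) and Treml2 (0.97), a receptor of the TREM family. For Scd1, Treml2 (0.96), Itga4 (0.96), the integrin alpha 4 chain, Lair1 (0.96), a collagen receptor, and Abcg1 (0.95), a sterol exporter, followed Scd2. For Fads2, Scd2 and Treml2 were followed by Mylip (0.93), a ubiquitin ligase of the LDL receptor, Itga4 (0.93) and Utp14b (0.92). Fads1 stood apart, with r = 0.19 to Scd1, 0.23 to Scd2 and 0.23 to Fads2, and its closest genes were Ly6e (0.79), Rps12 (0.77), Tomm22 (0.76), Plscr3 (0.75) and Dynlt1f (0.75).

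Markers of other cell types were low, and some differed between groups. Platelet markers summed to 8.40 to 11.7 CPM in WT libraries and 3.32 to 7.35 CPM in KO libraries, those of macrophages and monocytes to 5.75 to 8.97 CPM and those of B cells to 1.39 to 2.44 CPM over all libraries. Dendritic cell markers had means of 3.75 CPM in untreated WT, 2.89 with OA and 4.01 with AA, and of 3.62, 2.73 and 3.59 CPM in KO, so that they were lowest with OA in both genotypes. The CD8+ T cell markers themselves summed to 1764 to 1852 CPM in KO with OA or AA and to 1892 to 2019 CPM in the other 4 groups, so that these groups did not overlap. The part of these marker levels in the desaturase values was not tested.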

How the data were processed

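Per the labels' protocols, RNA was taken up in TRIzol, polyadenylated RNA was selected and the library kit keeps the strand. The submitters' processing notes name Trimmomatic 0.36, featureCounts from Subread 1.5.1 and GRCm38. Which aligner, annotation release, strand option and pairing option were used is not given in the sources read. The deposited table holds raw counts per gene. Between 66.5% and 70.7% of counts from 1 to 19 in a library are even, a pattern that arises where the mates of a read pair are counted separately. Intervals from counts would then be too narrow.

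edgeR 4.0.16 in R 4.3.3 kept genes by filterByExpr (minimum count 10, minimum total 15), scaled libraries by TMM (factors 0.961 to 1.03) and fitted quasi-likelihood models over the 23 libraries, whose 6 group means left 17 residual degrees of freedom. In each of 11 comparisons p-values were adjusted by Benjamini and Hochberg's method across 18015 genes, at a threshold of 0.05, and "called" means past it. CPM values are scaled by TMM. RPKM divides them by the length of the gene model in the table. The procedure was run on counts simulated from its own fit, with changes made for OA in WT alone and not in scarce genes. That run does not test the effect of mates counted separately.

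Named were the 5 desaturase genes in every comparison, 10 context genes wherever useful, at most 3 further genes per list and comparison with the smallest adjusted p, and the 5 genes with the highest r to each desaturase (mean log2 CPM of at least 1, prior count 2, no predicted genes). The desaturase genes and the lists were chosen with earlier results of these data known. Fen1 was taken as a chromosomal neighbour.

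Coding sequences and transcripts came from GENCODE M21 on GRCm38. Promoters are not printed. Alternatives were DESeq2 1.42.0, limma-voom (limma 3.58.1) with quality weights, scaling by RLE or by upper quartile, a filter dropped or raised to 1 CPM in 4 libraries, a fit to the compared groups alone, a block for replicate number, and leaving out single libraries.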

Additional observations from a re-analysis of the deposited data

Results flagged for a closer look

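In untreated WT, Fads2 of replicate 1 stood at 6.35 CPM against 5.13 to 5.27 in the other 3 libraries, a gap of 0.883 of the group's range. In WT with OA, Fads3 of replicate 3 stood at 0.148 CPM (6 counts) against 0.0859 to 0.0925 (4 counts each), a gap of 0.894 of the range at a level near the limit of detection. Of 25 groups looked at for such gaps chance alone marks about 1 in 20, and the causes were not tested.

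The effect of a fatty acid differed between genotypes for both Scd genes. The difference of the AA effect, KO minus WT, was -1.19 on the log2 scale for Scd1 (edgeR adjusted p = 2.86e-06) and -0.68 for Scd2 (edgeR adjusted p = 7.86e-13). The difference of the OA effect was -0.62 for Scd1 (edgeR adjusted p = 0.0233) and -0.66 for Scd2 (edgeR adjusted p = 1.56e-11). For Scd1 the OA call was lost in 5 of 15 fits with a library left out (the largest edgeR adjusted p was 0.0933). The genotypes cannot be told apart from the difference in Xist and in T cell receptor between the same libraries.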

How the results depend on the processing

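Outside the left-out libraries, 345 of 352 values kept their direction and their side of the threshold. Upper quartile scaling took the Scd2 difference of untreated KO and WT to 0.0649 (edgeR adjusted p = 0.0994). The Fads1 difference of KO and WT with OA changed sign near 0, to -0.0126 with upper quartile factors, -0.00345 without a filter, -0.0103 with the stricter filter and -0.00142 with only the groups compared. With the replicate number as a block it was -0.00110, and the block changed no call of a desaturase gene but took those of Srebf1 and Msmo1 with AA in WT, Hacd1 with AA and Fasn with OA in KO, and the Cpt1a difference of the OA effect (edgeR adjusted p = 0.0538, 0.0509, 0.0560, 0.0729 and 0.0654). No pairing by replicate number was detected, as 1 of 55 same-numbered pairs correlated above 0.1 (median r 0.000772), and 6 of 23 libraries correlated best with their own number. With so few libraries per group this cannot show that there is none, and the labels do not say. Fads1 with AA in WT turned to 0.00767 with limma-voom.

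With each library left out in turn, 373 of 400 values kept both their direction and their side of the threshold. The ranges where a call or sign changed were -0.69 to -0.50 for the Scd1 difference of the OA effect, 0.0760 to 0.130 for Scd2 in untreated KO against WT, and -0.67 to -0.52 for Scd1 with AA in WT. For Fads2 they were 0.27 to 0.34 in KO against WT with AA, 0.11 to 0.39 with OA, 0.24 to 0.47 for AA against OA in WT and 0.26 to 0.51 in KO. For Fads1 they were 0.0862 to 0.232 in KO against WT with AA, -0.0477 to 0.0689 with OA, -0.0381 to 0.0368 for AA in WT and -0.0119 to 0.129 for AA against OA in KO.

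Of 2308 values of called context genes, 104 lost their call, and none changed sign. The number of genes called for AA in WT was 75, but 129 by DESeq2 and 48 without WT replicate 1. For OA in WT it was 672, but 436 without WT replicate 2, and for AA against OA in WT 531, but 349 without replicate 4 of WT with OA. With upper quartile factors 28.2% of calls for AA in WT were higher, against 38.7%, and 57.7% of those for the difference of the OA effect, against 47.1%. Depth limits Fads3, Scd3 and Scd4. Counting intervals are too narrow if the mates of a pair were counted separately, which was not tested.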

Other observations

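Genes that load or use unsaturated chains were looked at beside the desaturases. Acsl5, an acyl-CoA synthetase, was higher in untreated KO than in WT (161 against 127 CPM, log2 difference 0.34, edgeR adjusted p = 2.45e-12) and fell in KO by 0.44 with AA and by 0.24 with OA, further than in WT (differences of effects -0.35 and -0.28, edgeR adjusted p = 1.86e-07 and 3.04e-05). Acsl4, the synthetase that prefers arachidonate, fell by 0.18 in KO with each fatty acid (edgeR adjusted p = 2.06e-04 with AA and 6.08e-04 with OA). Of 9 genes of acyl-CoA activation, edgeR called 0 with AA in WT (2 at an unadjusted p under 0.05, and 0 by DESeq2 and limma-voom). With AA in KO 0 rose and 3 fell, where 27.6% of all tested genes were called. With OA, 0 rose and 1 fell in WT (3.73% of all tested genes called), and 0 rose and 4 fell in KO (23.2%).

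Dgat1, which makes triglyceride from acyl-CoA, had the opposite pattern to Scd1 in KO. It stood at 7.24 CPM in untreated KO and 13.4 CPM in untreated WT (log2 difference -0.89, edgeR adjusted p = 1.94e-13) and rose in KO by 0.81 with AA and by 0.81 with OA (edgeR adjusted p = 1.16e-11 and 1.44e-10), while in WT it gave 0.16 and -0.01 (with AA and with OA, neither of which passed). The differences of effects were 0.65 and 0.82 (edgeR adjusted p = 4.04e-06 and 3.27e-07). Both fatty acids are set against the same untreated libraries. Dgat1 was taken from a list of 15 tested genes that use unsaturated chains. In that list 2 rose and 2 fell with AA in KO (27.6% of all tested genes called), and 2 rose and 2 fell with OA in KO (23.2%). With OA in WT 1 rose and 1 fell (3.73%). With AA in WT edgeR called 0 (1 at an unadjusted p under 0.05, and 0 by DESeq2 and limma-voom).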
